A study of Mus musculus with 38 samples.

Results

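The splicing factors described here are the 50 genes, of 11184 listed, whose symbols begin with Srsf and a digit, Hnrnp, Sf3a or Sf3b and a digit, or Snrp. They comprise 10 Srsf genes, 20 Hnrnp genes, 9 Sf3 genes and 11 Snrp genes, chosen by name alone, and all 50 were among the 9942 genes tested. Their transcripts were measured by RNA-seq in primary bone marrow-derived macrophages of C57BL/6 mice in 32 libraries, 4 in each of 8 groups. Macrophages of 3 groups received LPS (a bacterial lipopolysaccharide) at 5 ng/ml together with IFNg (the cytokine interferon gamma) at 12 ng/ml, then lactic acid (LA) 4 h later, and were sampled 8 h, 16 h and 24 h after LPS and IFNg (LA 8h, LA 16h and LA 24h). Macrophages of 4 groups received LPS and IFNg alone and were sampled after 4, 8, 16 or 24 h, and the 0h group was unstimulated. Chromatin of macrophages after 24 h of LPS and IFNg (M1) and of unstimulated macrophages (M0) was profiled by ChIP-seq for lactylated (H3K18la) and acetylated (H3K18ac) histone H3, with 1 library per mark and state. The dose of lactic acid is not given in the sources used here, and the labels leave unsaid if the libraries within a group are from different animals or cultures. The p-values therefore rest on a spread between libraries that may be technical.

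Introns are removed from pre-mRNA by the spliceosome, which is built from small nuclear ribonucleoprotein particles (snRNPs) and many further proteins. Snrp genes encode the Sm ring that surrounds the small nuclear RNAs and proteins particular to the U1 and U2 particles, and the SF3a and SF3b complexes hold the U2 particle at the branch point. SR proteins (Srsf) mostly bind exonic enhancers and favour the use of nearby splice sites, and hnRNP proteins coat nascent RNA and often act against inclusion of exons. Several SR genes carry poison exons, whose inclusion sends their own transcript to nonsense-mediated decay, so a gene-level read count does not separate productive from unproductive isoforms. In macrophages, LPS is known to change the splicing of many transcripts, and hnRNP M is known to hold back the splicing of Il6.

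Values are RPKM, reads per kilobase of counted gene length scaled by the authors to an effective library size. Recovered from the values, that size averaged 1.334 times the reads in listed genes in 0h libraries and 0.924 times in 4h libraries. In the other groups it averaged from 0.825 times (LA 24h) to 1.046 times (LA 16h). Differences are given on the log2(RPKM + 1) scale, which understates changes of low genes. A gene was called at an adjusted p under 0.05 in limma over all tested genes. Depth, as reads in listed genes, ran between 60.6 and 103.9 M per library. The authors' list holds almost only genes that passed their own test, with 19 exceptions, so the shares of all genes called are shares of that list. Scaling each library to its reads in listed genes instead moved the median of all genes to -0.43 for 4h, -0.40 for 8h, -0.30 for 16h and -0.37 for 24h, each against 0h, and to -0.15 for LA 24h against 24h, and counts under that scaling are given beside the main ones. The 6 genes fixed to check the response to LPS and IFNg summed to 6930 to 7330 RPKM in 4h libraries, against 9.25 to 14.2 RPKM in 0h libraries. The 11 macrophage markers were all listed, with summed levels of 13900 to 15000 RPKM in 4h libraries, 36400 to 48600 RPKM in 24h libraries and 37900 to 54200 RPKM in LA 24h libraries, against 18300 to 20700 RPKM in 0h libraries, and their part in the results was not tested. Of 12 genes of neutrophils and their precursors 6 were listed, with sums of 60.8 to 90.4 RPKM at 4 h and 56.7 to 70.6 RPKM at 24 h, against 21.3 to 26.6 RPKM at 0 h, and their part in the results was not tested. On the second principal component of all genes LA 24h replicate 1 lay at 28.6, against 22.6 to 25.2 for its group, and 24h replicate 4 at 17.9, against 8.7 to 11.6. In a bulk library, fewer cells of a type and less RNA per cell cannot be told apart.

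The splicing factors were expressed at a median of 15.4 RPKM over all libraries, beside 6.62 RPKM over all tested genes. Snrpb, which encodes the Sm ring proteins B and B', had the highest mean level, 83.6 RPKM. Hnrnpc, whose product binds uridine-rich stretches of nascent transcripts, led the hnRNP genes with 75.1 RPKM, Sf3b6, whose product contacts the branch point, led the Sf3 genes with 59.6 RPKM, and Srsf9 led the SR genes with 34.2 RPKM. Hnrnpr had the lowest mean level, 0.889 RPKM. Over the 5 times without lactic acid, the 4h group had the highest mean in 35 of 50 genes, the 8h group in 8, the 0h group in 6 and the 24h group in 1. The lowest mean fell at 24 h in 20 genes, at 16 h in 15 and at 0 h in 10. These times rest on the authors' scaling and were not counted over all tested genes.

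**Figure D1:**
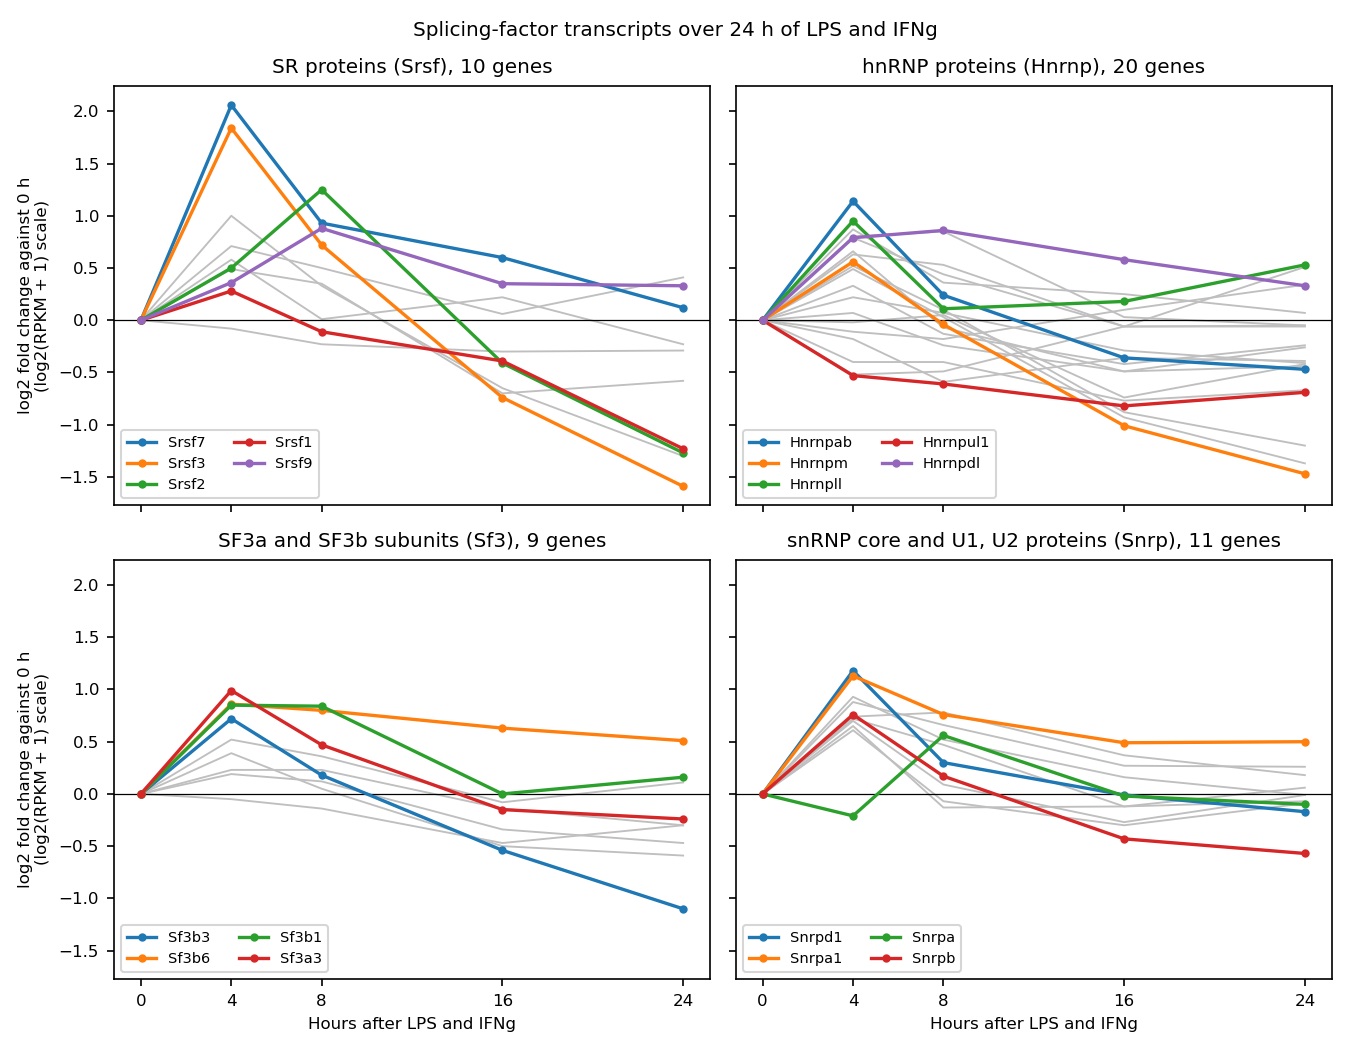
Each line is 1 splicing-factor gene, plotted as its log2 fold change against 0 h (vertical axis, log2(RPKM + 1) scale, limma group means of 4 libraries) by hours after LPS and IFNg (horizontal axis), with 1 panel per family and the named genes in colour. Srsf7 reached 2.06 and Srsf3 1.84 at 4 h, and Srsf3, Hnrnpm and Srsf2 lay at -1.59, -1.47 and -1.27 at 24 h; the small 4 h values of Srsf1 and Srsf2 change sign when libraries are scaled to reads in listed genes.

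After 4 h of LPS and IFNg most splicing factors were higher than in unstimulated macrophages. Of the 50 genes 40 were higher and 5 lower (limma, adjusted p under 0.05), where 42.5% of all tested genes were higher and 42.7% lower. Their median log2 fold change was 0.62, against 0.00 over all tested genes. Scaled to reads in listed genes, 23 rose and 15 fell, beside 2335 higher and 6337 lower of all 9942 tested genes. The median of the splicing factors was then 0.14, beside -0.43 over all genes. By family, 9 of 10 Srsf, 13 of 20 Hnrnp, 8 of 9 Sf3 and 10 of 11 Snrp genes were higher. Under scaling to reads in listed genes, 4 Srsf genes were higher and 2 lower, 4 Sf3 genes were higher and 3 lower, and 8 Snrp genes were higher and 1 lower. In 39 of the 40 genes called higher the 4h and 0h libraries did not overlap. The matching share over all tested genes was not counted, so this does not set the splicing factors apart.

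The largest rises were those of Srsf7 and Srsf3, the shuttling SR proteins that also serve as adaptors for mRNA export. Srsf7 had 51.0, 61.3, 56.2 and 56.9 RPKM in 4h libraries, against 15.0, 14, 11.6 and 10.6 RPKM in 0h libraries. Srsf3 had 60.5, 70.7, 67.3 and 66.9 RPKM in 4h libraries, against 20.2, 18.5, 16.7 and 16.2 RPKM in 0h libraries. Every 4h library was far above every 0h library for both genes. Taken on RPKM + 1, the difference was 4.18-fold for Srsf7 (log2 2.06 ± 0.09 SE, adjusted p = 3.1e-20, limma) and 3.57-fold for Srsf3 (1.84 ± 0.10, adjusted p = 5.2e-17, limma). Srsf6 had 25.2, 26.7, 25.9 and 25.2 RPKM at 4 h, against 13.5, 11.8, 11.8 and 12.5 RPKM at 0 h, a log2 fold change of 1.00 ± 0.08 (adjusted p = 1.7e-13, limma). Srsf5, a further SR protein, had 16.6, 15.5, 15.2 and 15.8 RPKM at 4 h, against 10.9, 10.5, 11.1 and 11.1 RPKM at 0 h. Its libraries did not overlap (0.49 ± 0.07, adjusted p = 1.5e-07, limma), but scaled to reads in listed genes its difference was 0.001 and not called. Srsf1, the founding member of the SR family, rose by a log2 of 0.28 (adjusted p = 0.016, limma) with overlapping libraries, and this turned to -0.22 when scaled to reads in listed genes. RefSeq annotates a pseudogene named after Srsf3 and one after an Hnrnpa1-like gene, and how the authors' counting treated reads shared with such copies is not given in the sources used here, so levels of Srsf3 and Hnrnpa1 are uncertain to that extent.

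The start regions of 4 genes with different courses are shown to let their letters be set beside those courses. Srsf7 (chr17:80207256-80207555, minus strand) and Srsf3 (chr17:29032410-29032709, plus strand) rose most at 4 h. Hnrnpul1 (chr7:25754710-25755009, minus strand) fell most at 4 h on the log2(RPKM + 1) scale, and Hnrnpm (chr17:33685409-33685708, minus strand) had the widest range of the hnRNP genes. Each runs 5′ to 3′ from 250 bases before to 50 bases after the annotated start in RefSeq's GRCm38.p6, and capitals mark letters of any searched motif on either strand.
Srsf7: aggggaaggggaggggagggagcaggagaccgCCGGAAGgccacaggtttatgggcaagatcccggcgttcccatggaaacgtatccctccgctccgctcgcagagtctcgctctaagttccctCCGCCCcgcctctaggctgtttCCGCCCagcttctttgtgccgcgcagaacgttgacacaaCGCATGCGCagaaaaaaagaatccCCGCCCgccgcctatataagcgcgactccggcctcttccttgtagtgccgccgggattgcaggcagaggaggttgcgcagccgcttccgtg
Srsf3: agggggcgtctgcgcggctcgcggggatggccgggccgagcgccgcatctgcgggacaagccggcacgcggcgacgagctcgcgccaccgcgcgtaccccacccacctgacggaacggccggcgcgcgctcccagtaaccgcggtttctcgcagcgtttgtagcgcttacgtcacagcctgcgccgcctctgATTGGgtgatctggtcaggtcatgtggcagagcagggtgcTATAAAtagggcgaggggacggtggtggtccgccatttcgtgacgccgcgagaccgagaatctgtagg
Hnrnpul1: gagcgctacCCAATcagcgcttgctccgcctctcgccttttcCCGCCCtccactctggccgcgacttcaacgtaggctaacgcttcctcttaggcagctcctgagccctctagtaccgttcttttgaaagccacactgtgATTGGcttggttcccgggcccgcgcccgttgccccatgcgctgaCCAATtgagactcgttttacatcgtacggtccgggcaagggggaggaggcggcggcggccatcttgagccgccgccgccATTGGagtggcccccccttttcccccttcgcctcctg
Hnrnpm: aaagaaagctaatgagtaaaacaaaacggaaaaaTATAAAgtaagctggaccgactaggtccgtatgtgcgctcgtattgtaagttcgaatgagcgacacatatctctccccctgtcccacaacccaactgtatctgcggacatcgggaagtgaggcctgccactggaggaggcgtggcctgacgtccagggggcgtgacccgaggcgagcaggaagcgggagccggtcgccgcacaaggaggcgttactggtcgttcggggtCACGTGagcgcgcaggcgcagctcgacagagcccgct
The motifs searched were the NRF1 core GCGCATGCG, the ETS motif CCGGAAG, the GC box GGGCGG, the CCAAT box CCAAT, the E box CACGTG, the YY1 motif AAGATGGCG, the cyclic AMP response element TGACGTCA, the TATA letters TATAAA, an interferon response element GAAANNGAA and a κB motif GGANTTTCC. In these 4 windows no capital letter belonged to more than 1 motif. Srsf7 held the NRF1 core 65 bases before its start, an ETS motif and 3 GC boxes. Srsf3 held a CCAAT box 58 bases and TATA letters 18 bases before its start. Hnrnpul1 held 4 CCAAT boxes and a GC box, and Hnrnpm held an E box just after its start and TATA letters 216 bases before it. Of the 50 genes 44 had a promoter entry. Among those 44, 36.4% held the ETS motif, 70.5% the GC box, 47.7% the CCAAT box, 13.6% the TATA letters and 11.4% the E box, against 8.86%, 35.7%, 37.4%, 13.6% and 7.15% of all promoters in the table in that order. Among the tested genes' promoters these shares were 20.5%, 66.2%, 39.3%, 6.67% and 10.7% in the same order. The other motifs each lay in at most 3 of the 44, with shares over all promoters of 1.75% for the NRF1 core, 1.40% for the YY1 motif, 1.79% for the cyclic AMP element, 8.56% for the interferon element and 1.25% for the κB motif. A match describes letters and not binding.

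Among snRNP genes at 4 h, Snrpd1, which encodes the Sm protein D1, had 69.9, 78.2, 74.9 and 76.0 RPKM, against 39.2, 32.3, 30.3 and 28.6 RPKM at 0 h. Snrpa1, which encodes the U2 protein A', had 12.4, 13.4, 13.6 and 13.3 RPKM at 4 h, against 6.27, 5.19, 4.95 and 5.50 RPKM at 0 h. In both genes the groups were well apart, with log2 fold changes of 1.18 ± 0.09 (adjusted p = 4e-13, limma) and 1.13 ± 0.08 (adjusted p = 9.4e-14, limma). Snrpb rose to 153 ± 5.51 RPKM at 4 h, against 89.9 ± 5.32 RPKM at 0 h (SD, n = 4 libraries each). Snrpa, which encodes the U1 protein A, was the one Snrp gene called lower, with a log2 fold change of -0.21 that was not called without 4h replicate 3 (adjusted p = 0.055, limma).

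Among Sf3 genes at 4 h, Sf3b1, the largest subunit of SF3b, had 27.0, 28.6, 29.7 and 27.9 RPKM, against 15.8, 15.3, 15.9 and 14 RPKM at 0 h. The groups did not overlap (0.85 ± 0.05, adjusted p = 1.6e-15, limma). Sf3b3 rose by a log2 of 0.72 and Sf3b6 by 0.86. Sf3b4 was called higher with a log2 fold change of 0.23, which became -0.28 when scaled to reads in listed genes.

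Of the 20 hnRNP genes, 13 rose and 4 fell at 4 h, where 42.5% of all tested genes were higher and 42.7% lower. With libraries scaled to reads in listed genes 7 rose and 9 fell, beside 2335 higher and 6337 lower of all 9942 tested genes. Hnrnpab had 74.5, 68.1, 68.0 and 67.9 RPKM at 4 h, against 35.8, 30.9, 29.1 and 28.7 RPKM at 0 h, a log2 fold change of 1.14 ± 0.06 (adjusted p = 4e-18, limma). Hnrnpll, which is known to direct splicing of the leukocyte antigen CD45 in lymphocytes, had 7.05, 8.00, 7.78 and 7.39 RPKM at 4 h, against 3.54, 3.43, 3.45 and 3.26 RPKM at 0 h (0.95 ± 0.05, adjusted p = 7.7e-17, limma). All libraries of the 4h group exceeded those of the 0h group in both genes. The abundant Hnrnpa1 and Hnrnpa2b1, whose products are classical splicing silencers, were called higher with log2 fold changes of 0.52 and 0.49, and scaled to reads in listed genes these were -0.002 and -0.029. Hnrnpul1 had 10.5, 8.52, 9.58 and 9.56 RPKM at 4 h, against 13.5, 14, 14.8 and 14.4 RPKM at 0 h, and fell by 0.53 on the log2 scale (adjusted p = 2.7e-08, limma). Hnrnpl had 16.8 ± 0.886 RPKM at 4 h, against 24.5 ± 1.24 RPKM at 0 h (SD, n = 4 libraries each), and fell by 0.52. Hnrnpa0, Hnrnph3 and Hnrnpul2 were not called, at -0.02, -0.11 and 0.07. Hnrnpu, which encodes a nuclear matrix and RNA-binding protein, fell by 0.40, with 1.44 to 1.83 RPKM at 4 h, against 2.22 to 2.76 RPKM at 0 h.

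More splicing factors fell than rose between 4 h and 8 h. At 8 h, against 4 h, 3 genes were higher and 29 lower, where 34.8% of all tested genes were higher and 36.9% lower. The 32 called genes had no overlap between the groups, a share that was not counted over all tested genes. Srsf7 had 23.6, 24.2, 26.2 and 26.1 RPKM at 8 h and fell by 1.14 on the log2 scale, and Srsf3 had 28.0, 29.6, 32.3 and 30.5 RPKM and fell by 1.12 (adjusted p = 3.5e-13 and 2.6e-11, limma). Hnrnpab and Snrpd1 fell by 0.90 and 0.88. The 3 genes that were higher at 8 h than at 4 h were Snrpa, Srsf2 and Srsf9. Srsf2, the SR protein also called SC35, had 41.6, 44.4, 41.8 and 42.4 RPKM at 8 h, against 27.7, 24.4, 23.4 and 23.8 RPKM at 4 h. Its 8h libraries all lay above its 4h libraries (0.76 ± 0.07, adjusted p = 2.5e-11, limma). Snrpa had 18.4 ± 0.330 RPKM at 8 h, against 10.3 ± 0.932 RPKM at 4 h, and Srsf9 45.4 ± 2.29 RPKM at 8 h, against 31.3 ± 2.21 RPKM at 4 h (SD, n = 4 libraries each).

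Against 0 h, 26 genes were higher at 8 h and 8 lower, where 40.7% of all tested genes were higher and 42.1% lower. Scaled to reads in listed genes, 11 were higher and 28 lower, beside 2200 higher and 6365 lower of all 9942 tested genes. All comparisons against 0 h share the 0h libraries, and the comparisons of 8h with 4h and of 24h with 8h share the 8h libraries. Srsf2 led with a log2 fold change of 1.25 ± 0.07 (adjusted p = 5.4e-17, limma), before Srsf7 with 0.93, Srsf9 with 0.88 and Hnrnpdl with 0.86. Hnrnpul1 and Hnrnpr were lower by 0.61 and 0.59 on the log2 scale, Hnrnpr with 0.616 ± 0.0757 RPKM at 8 h, against 1.44 ± 0.129 RPKM at 0 h (SD, n = 4 libraries each).

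At 16 h and 24 h more splicing factors were below the unstimulated level than above it. At 16 h 11 genes were higher and 27 lower than at 0 h, where 39.9% of all tested genes were higher and 36.9% lower. At 24 h 10 were higher and 26 lower, where 39.9% were higher and 37.3% lower. Scaled to reads in listed genes the counts were 4 higher and 42 lower at 16 h and 1 higher and 43 lower at 24 h. Of all 9942 tested genes, 2085 were then higher and 6045 lower at 16 h, and 1686 higher and 6588 lower at 24 h. At 24 h, 7 of 10 Srsf, 12 of 20 Hnrnp and 6 of 9 Sf3 genes were lower, but 1 of 11 Snrp genes, Snrpb, which had 60.5 ± 8.77 RPKM at 24 h, against 89.9 ± 5.32 RPKM at 0 h (SD, n = 4 libraries each). When scaled to reads in listed genes, 9 Srsf, 16 Hnrnp, 8 Sf3 and 10 Snrp genes were lower at 24 h. Per doubling of counted gene length, library deviations sloped by -0.211 to -0.001 in 24h libraries, against 0.097 to 0.147 in 0h libraries. With each library's length trend removed, 6 Srsf, 11 Hnrnp and 6 Sf3 genes were lower at 24 h, beside 4051 higher and 3652 lower of all 9942 tested genes. Of the Snrp genes 7 were then lower and 2 higher. The small number of lower Snrp genes was thus lost under either change, and the part of length was not tested.

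Srsf3, second among the rises at 4 h, had the largest fall at 24 h. It had 3.84, 7.02, 5.09 and 5.36 RPKM in 24h libraries, all under the 16.2 RPKM of the lowest 0h library, and fell by 1.59 on the log2 scale (adjusted p = 5.3e-15, limma). Its highest group mean was 12.4 times its lowest over the 5 times. Srsf2 had 6.28, 6.80, 6.52 and 6.79 RPKM at 24 h, against 19.6, 17.2, 16.8 and 15.7 RPKM at 0 h (-1.27 ± 0.07, adjusted p = 9.2e-17, limma). Srsf1 had 5.21, 8.62, 7.52 and 5.66 RPKM at 24 h, against 18.8, 16.2, 16.8 and 15.8 RPKM at 0 h (-1.23 ± 0.11, adjusted p = 7.4e-12, limma). In these 3 SR genes no 24h library reached a 0h library. Srsf7 was not called at 24 h, with 0.12 ± 0.09 (adjusted p = 0.20, limma), a value that became -0.33 when scaled to reads in listed genes and -0.007 with the length trend removed.

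Among hnRNP and Sf3 genes, Hnrnpm had 5.82, 7.31, 7.34 and 9.04 RPKM at 24 h, against 22.2, 22.0, 23.0 and 21.0 RPKM at 0 h (-1.47 ± 0.09, adjusted p = 1e-15, limma). Hnrnpa1 had 25.5, 26.9, 26.0 and 32.4 RPKM at 24 h, against 67.6, 63.2, 67.0 and 61.9 RPKM at 0 h (-1.20 ± 0.06, adjusted p = 2.5e-18, limma). Hnrnpa2b1 fell by 1.37 on the log2 scale and Sf3b3 by 1.10, and libraries of both groups were apart in all 4 genes. The genes that were higher at 24 h by the largest differences were Hnrnpll, Hnrnpc, Sf3b6 and Snrpa1, with log2 fold changes of 0.53, 0.51, 0.51 and 0.50. Hnrnpll had 5.86, 4.98, 4.94 and 5.87 RPKM at 24 h, against 3.54, 3.43, 3.45 and 3.26 RPKM at 0 h, with no overlap, and was the one gene called higher that was also called under scaling to reads in listed genes. Scaled that way Hnrnpc, Sf3b6 and Snrpa1 had differences of 0.038, 0.039 and 0.08 and were not called. Sf3b1 was called slightly higher at 24 h, with 0.16 ± 0.05 (adjusted p = 0.010, limma), and this became -0.30 under that scaling and was not called without 0h replicate 4 (0.12, adjusted p = 0.063, limma). Hnrnpc had 82.5, 83.5, 73.9 and 101.0 RPKM at 24 h, against 61.3, 58.5, 58.5 and 57.7 RPKM at 0 h. Sf3b6 had 55.2, 59.2, 52.7 and 71.1 RPKM at 24 h, against 45.2, 41.3, 37.5 and 41.1 RPKM at 0 h. In both genes the groups were apart and 24h replicate 4 was the highest of its group.

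Measured from 8 h and so without the 0h libraries, the later fall was seen in 36 genes, with 4 higher at 24 h, where 38.9% of all tested genes were higher and 37.6% lower. Srsf2 fell by 2.52 on the log2 scale, Srsf3 by 2.32, Srsf6 by 1.63 and Hnrnpm by 1.44. The 4 higher genes were Hnrnph3, Hnrnpl, Hnrnpll and Hnrnpr. Hnrnpl had 23.6 ± 1.11 RPKM at 24 h, against 17.2 ± 0.770 RPKM at 8 h (SD, n = 4 libraries each).

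**Figure D2:**
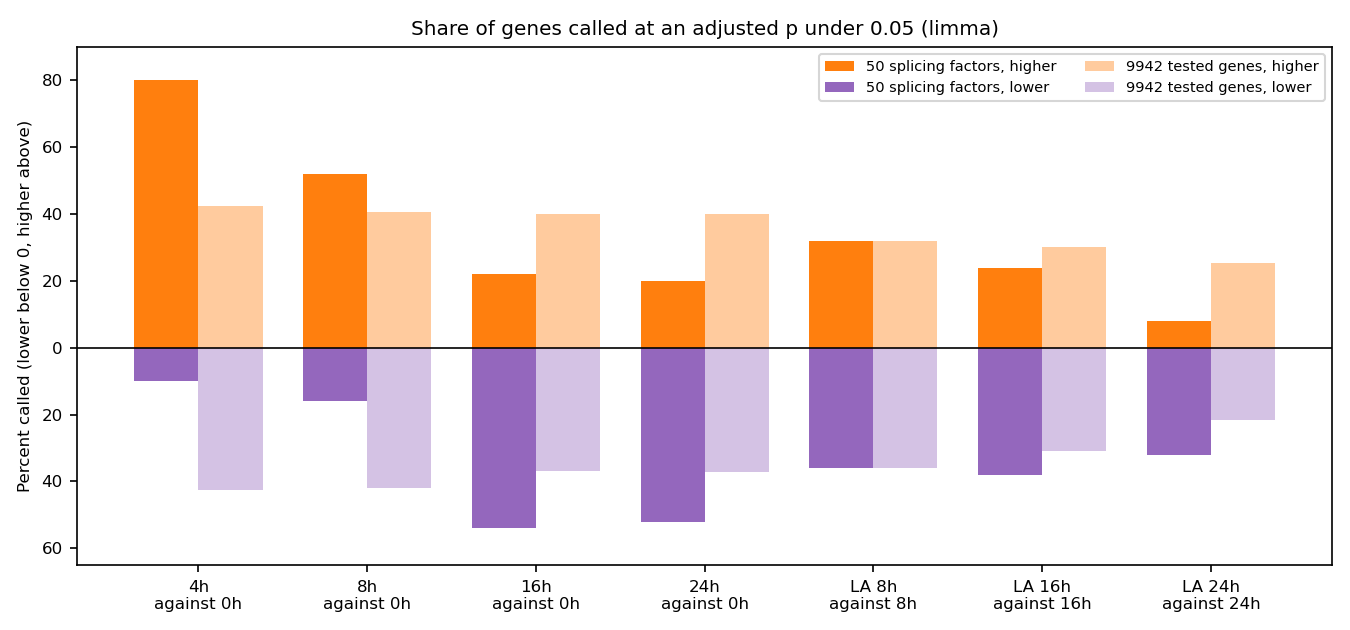
Bars show the percent of the 50 splicing factors (dark) and of the 9942 tested genes (pale) called higher (above 0) or lower (below 0) in each comparison named on the horizontal axis (limma, adjusted p under 0.05). At 4 h 40 of 50 splicing factors were higher, beside 42.5% of tested genes, and at 24 h 26 were lower, beside 37.3%. Scaled to reads in listed genes, 23 of 50 were higher at 4 h, beside 2335 of 9942 tested genes. Under that scaling 43 of 50 were lower at 24 h, beside 6588 of 9942.

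Other genes of the splicing and 3′ end machinery, 173 genes in 9 lists of which 164 were tested, are given for comparison. At 4 h 103 were higher and 31 lower than at 0 h (median log2 fold change 0.28), where 42.5% of all tested genes were higher and 42.7% lower. With scaling to reads in listed genes 48 were higher and 87 lower (median -0.15). Of all 9942 tested genes 2335 were then higher and 6337 lower (median -0.43). At 24 h 31 of the 164 were higher and 87 lower (median -0.17), where 39.9% of all tested genes were higher and 37.3% lower. Under that scaling 7 were higher and 147 lower (median -0.56), beside 1686 and 6588 of all 9942 tested genes (median -0.37). On the log2(RPKM + 1) scale the largest 4 h values were those of Prpf38a, a spliceosome activation factor, with a log2 fold change of 2.94, the SR-related activators Tra2a and Tra2b with 2.90 and 1.95, and Magohb, a core protein of the exon junction complex, with 2.57. That scale understates the change of Magohb, which was low at 0 h, with a mean of 1.25 RPKM, against 12.3 RPKM at 4 h. Prpf38a had means of 4.92 RPKM at 0 h and 44.7 RPKM at 4 h. At 24 h Sfpq, which binds pyrimidine tracts, fell by 2.06, the helicase Dhx9 by 1.65, Acin1 by 1.38 and the alternative splicing regulator Mbnl1 by 1.35. Clk1, a kinase of SR proteins, was higher by 0.44 at 4 h, a value of -0.005 when scaled to reads in listed genes, and by 0.65 at 24 h. Clk4, of the same family, was lower by 0.20 at 4 h, a call lost without 0h replicate 1 or 4 or 4h replicate 1 or 4, and higher by 0.71 at 24 h. Snrnp70, the U1 70 kDa protein, was higher by 0.69 at 4 h, and its 24 h value of 0.21 became -0.26 under that scaling and -0.01 with the length trend removed, and was not called without 24h replicate 4 (0.09). All log2 values in these sentences come from limma over all tested genes, and those named as higher, lower or fallen were called.

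With lactic acid, the splicing factors were called about as often as all genes 4 h after its addition, in both directions. At LA 8h, against 8h, 16 of 50 genes were higher and 18 lower, beside the 32.1% and 36.0% of all tested genes. With reads in listed genes as the scale 22 were higher and 12 lower, beside 3709 and 2894 of all 9942 tested genes. Of the 11 Snrp genes 9 were lower and none higher, with a median of -0.26, while 10 of 20 Hnrnp genes were higher and 4 lower, and 5 of 9 Sf3 genes were higher and 2 lower. On the scale of reads in listed genes, 1 Snrp gene was higher and 8 lower, 11 Hnrnp genes were higher and none lower, and 6 Sf3 genes were higher and 2 lower. Differences moved with gene length. The log2 differences correlated with log length over the 50 genes (Pearson r = 0.40, Spearman rho = 0.41) and over all 9942 tested genes (0.53 for both), a description across genes, which share the same libraries. Per doubling of length, library deviations sloped by 0.13 to 0.163 in LA 8h libraries, against -0.081 to -0.004 in 8h libraries. With each library's length trend removed, 20 genes were higher and 17 lower, beside 3030 higher and 3355 lower of all 9942 tested genes. Of the Snrp genes 2 were then higher and 5 lower. The summed neutrophil and precursor genes were at 45.4 to 57.7 RPKM in LA 8h libraries, against 65.8 to 79.1 RPKM in 8h libraries, and at 77.7 to 130.0 RPKM in LA 24h libraries, against 56.7 to 70.6 RPKM in 24h libraries, and their part was not tested. The part of length in the difference cannot be told apart from that of lactic acid in these libraries.

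The genes highest in LA 8h relative to 8h were Sf3b4, Hnrnpul2, Hnrnpul1 and Hnrnpd. Sf3b4, a subunit of SF3b, had 33.6, 34.5, 35.5 and 34.6 RPKM in LA 8h libraries, against 24.0, 22.3, 23.5 and 22.6 RPKM in 8h libraries. The groups were far apart (0.56 ± 0.06, adjusted p = 1.7e-08, limma). Hnrnpul1 had 12.8, 13.3, 13.1 and 12.8 RPKM in LA 8h libraries, against 9.57, 9.33, 8.65 and 8.31 RPKM in 8h libraries (0.49 ± 0.07, adjusted p = 4.3e-07, limma). Hnrnpd, which encodes the AU-rich element binding protein AUF1, had 14.4, 15.0, 16.8 and 15.2 RPKM in LA 8h libraries, against 10.0, 11.3, 11.1 and 10.8 RPKM in 8h libraries (0.47 ± 0.08, adjusted p = 4.4e-06, limma). Hnrnpul2 had 27.4, 28.0, 28.9 and 27.6 RPKM in LA 8h libraries, against 19.4, 21.2, 18.9 and 18.3 RPKM in 8h libraries. In these 4 genes every library with lactic acid lay above every library without it. The lowest were Srsf3, Sf3b5, Snrpg and Snrpd2, with log2 differences of -0.64, -0.64, -0.59 and -0.58. Srsf3 had 18.1, 20.0, 17.8 and 19.9 RPKM in LA 8h libraries, against 28.0, 29.6, 32.3 and 30.5 RPKM in 8h libraries. Srsf7 had 16.7, 17.8, 16.5 and 17.5 RPKM in LA 8h libraries, against 23.6, 24.2, 26.2 and 26.1 RPKM in 8h libraries. In both SR genes every library with lactic acid lay under every library without it, with adjusted p of 3.5e-06 and 6e-06 (limma). Snrpg, which encodes the Sm protein G, had 12.4, 12.1, 12.1 and 11.4 RPKM in LA 8h libraries, against 19, 16.3, 19.8 and 19.3 RPKM in 8h libraries. The counted length of Sf3b5 was worked out as 3841 bases, more than its RefSeq span, so its RPKM rests on a gene model that is not known here.

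**Figure D3:**
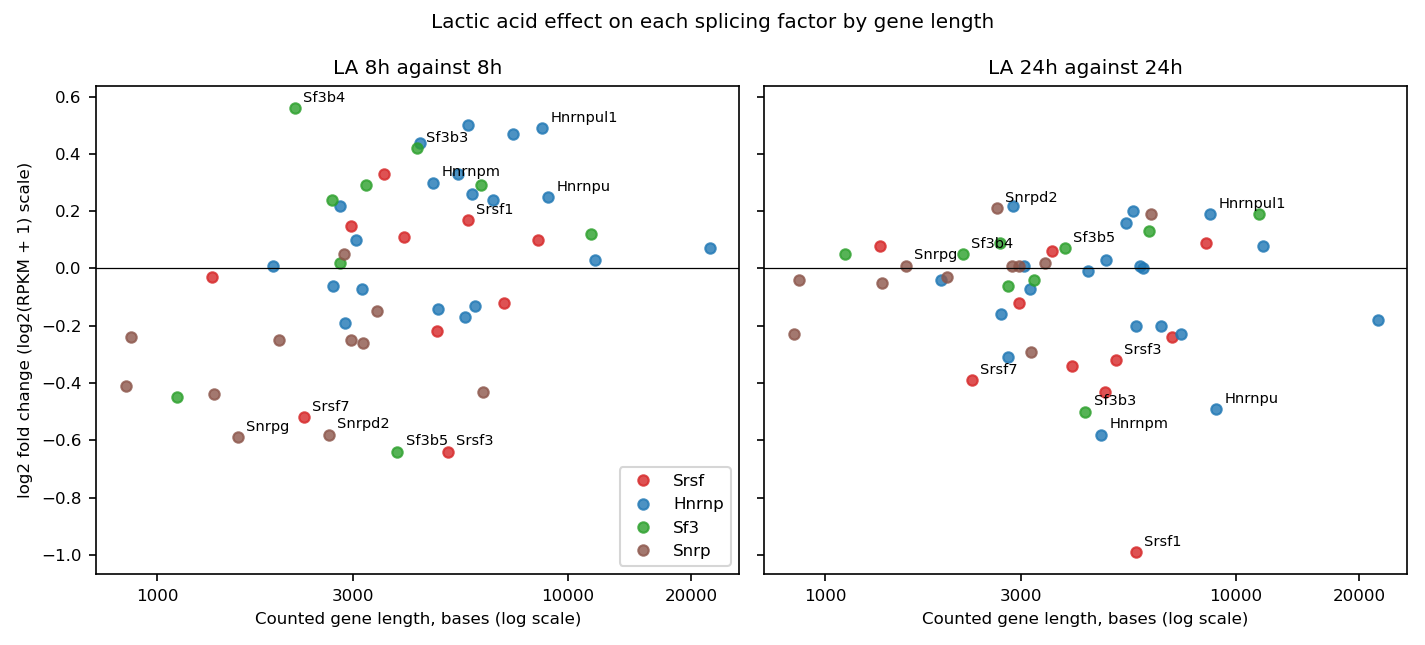
Each point is 1 splicing factor, coloured by family, with counted gene length in bases on a log horizontal axis and the log2 fold change with lactic acid on the vertical axis (log2(RPKM + 1) scale, 4 libraries per group), at 8 h (left) and 24 h (right). At 8 h most Snrp genes lie below 0 and longer genes lie higher (r = 0.40), and at 24 h Srsf1 stands lowest at -0.99.

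At LA 16h, against 16h, 12 genes were higher and 19 lower, where 30.2% of all tested genes were higher and 31.0% lower. Srsf7 was lowest, with 10.5, 13.4, 11.1 and 12.0 RPKM in LA 16h libraries, against 19.8, 21.5, 20.3 and 17.7 RPKM in 16h libraries (-0.71 ± 0.09, adjusted p = 9.7e-08, limma). Srsf3 was lower by 0.47 on the log2 scale, and Snrpd2 and Snrpd1 by 0.50 and 0.49. Hnrnpul1, Hnrnpd, Hnrnpul2 and Hnrnpa0 were higher by 0.47, 0.46, 0.42 and 0.41. Length correlated with the differences here too, with r = 0.33 over the 50 genes and 0.35 over all tested genes.

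At LA 24h, against 24h, 4 genes were higher and 16 lower, where 25.5% of all tested genes were higher and 21.7% lower. Of the 16 lower genes 10 had no overlap between groups, and the 4 higher genes all overlapped. Overlap was not counted over all tested genes. Scaled to reads in listed genes none was higher and 34 were lower, beside 1035 higher and 4616 lower of all 9942 tested genes. Fitted on these 2 groups alone, none of the splicing factors was higher and 8 were lower, and without 24h replicate 4, 7 were higher. The shares over all tested genes under these 2 fits are not given here, so these counts do not set the splicing factors apart. Srsf1 changed most. It had 2.66, 2.59, 2.65 and 3.49 RPKM in LA 24h libraries, against 5.21, 8.62, 7.52 and 5.66 RPKM in 24h libraries, with no overlap (-0.99 ± 0.11, adjusted p = 1e-08, limma). Hnrnpm had 4.51, 4.49, 4.57 and 4.68 RPKM in LA 24h libraries, against 5.82, 7.31, 7.34 and 9.04 RPKM in 24h libraries (-0.58 ± 0.09, adjusted p = 4.2e-06, limma). Sf3b3 had 4.67, 4.81, 4.99 and 5.58 RPKM in LA 24h libraries, against 6.94, 8.02, 8.19 and 6.86 RPKM in 24h libraries (-0.50 ± 0.07, adjusted p = 9.1e-07, limma). Libraries with lactic acid were the lower ones throughout in these genes, and within the LA 24h group Hnrnpm varied little. Hnrnpu fell by 0.49 on the log2 scale, with 0.385 to 0.655 RPKM in LA 24h libraries, against 0.846 to 1.64 RPKM in 24h libraries. The 4 genes called higher were Hnrnpc, Hnrnpk, Hnrnpul1 and Sf3b1, by 0.19 to 0.22 on the log2 scale, and scaled to reads in listed genes none of them was called, with Hnrnpk at -0.012, Hnrnpul1 at -0.001 and Sf3b1 at -0.007. Hnrnpc was not called without 24h replicate 3 or LA 24h replicate 1, nor Hnrnpul1 without 24h replicate 2 or 4 or LA 24h replicate 3 (adjusted p = 0.058 to 0.11, limma).

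The effect of lactic acid at 24 h differed from that at 8 h in 26 genes, higher in 9 and lower in 17, where 32.7% of all tested genes differed upward and 29.7% downward. Scaled to reads in listed genes the counts were 5 and 30, beside 1669 and 4761 of all 9942 tested genes. Without 24h replicate 4, 14 splicing factors were higher, and the share over all tested genes in that fit is not given here. The difference was most negative for Srsf1, Sf3b3, Hnrnpm and Hnrnpu, at -1.16, -0.92, -0.88 and -0.74 on the log2(RPKM + 1) scale. Sf3b3 shows its form, being above the untreated level with lactic acid at 8 h, with 25.4, 27.2, 26.5 and 27.3 RPKM in LA 8h libraries, against 19.5, 21.3, 19.2 and 18.5 RPKM in 8h libraries, and under it at 24 h. The difference was positive for Snrpd2, Sf3b5, Snrpc and Snrpg, at 0.80, 0.71, 0.62 and 0.61. Snrpd2 had 15.0, 14.5, 15.1 and 15.6 RPKM in LA 8h libraries, against 23.5, 19.8, 24.7 and 24.5 RPKM in 8h libraries, with no overlap. It had 27.2, 18.4, 19.6 and 16.8 RPKM in LA 24h libraries, against 16.3, 16.6, 14.4 and 22.5 RPKM in 24h libraries, with overlap and LA 24h replicate 1 and 24h replicate 4 the highest of their groups. These effects correlated with length over the 50 genes at r = -0.35 and over all tested genes at -0.52.

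**Figure D4:**
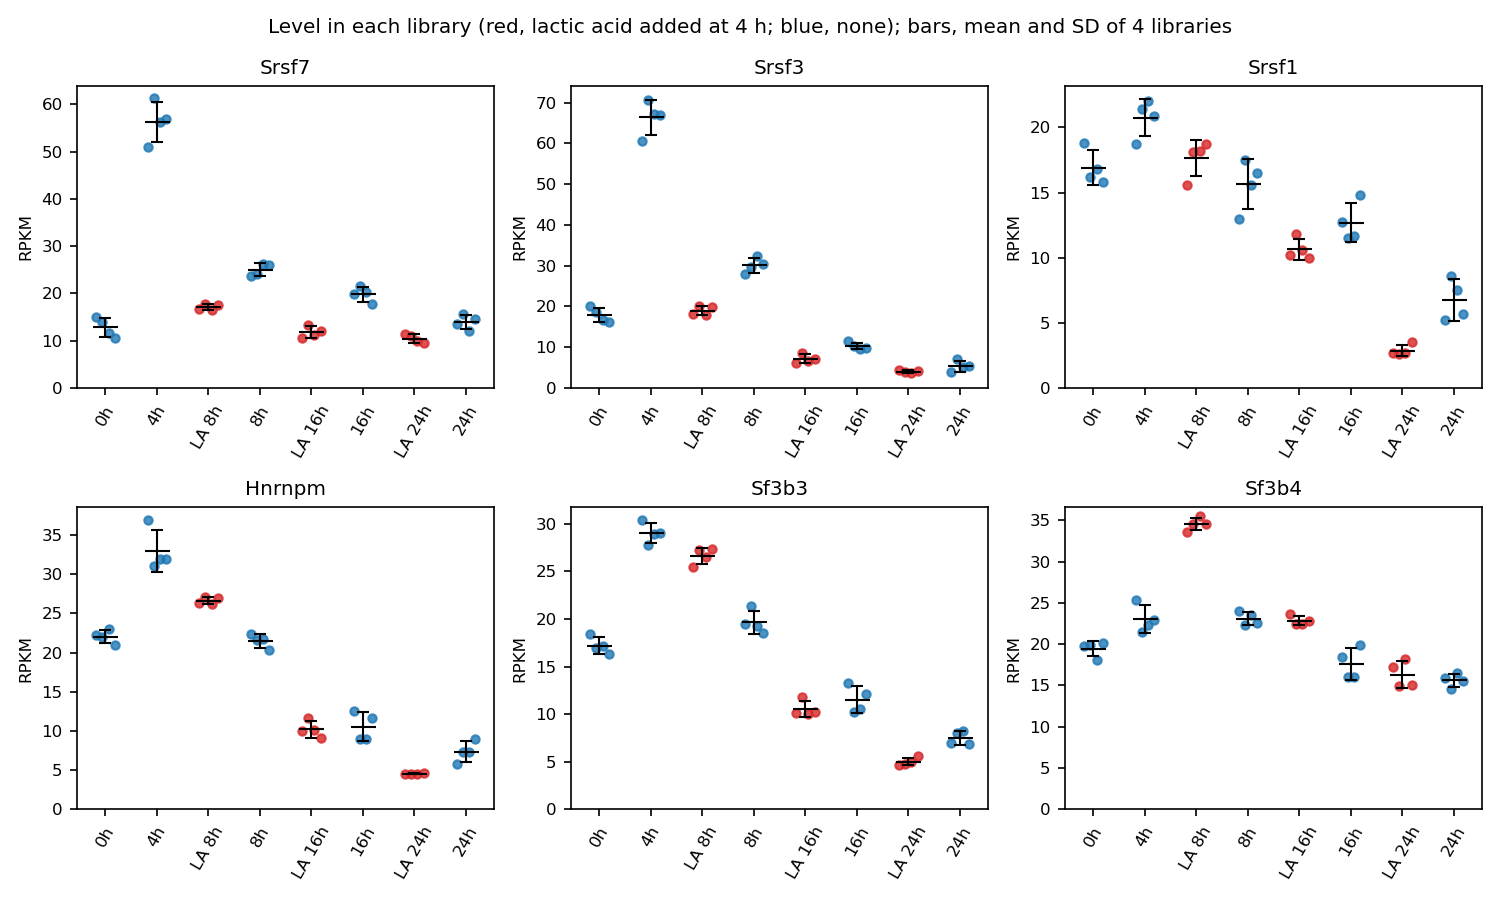
Points are the RPKM (vertical axis) of each library for 6 splicing factors, by group on the horizontal axis, red with lactic acid and blue without, and bars give the mean and SD of 4 libraries. Srsf7 and Srsf3 peak at 4 h with 51.0 to 61.3 and 60.5 to 70.7 RPKM, Srsf1 reaches its lowest levels of 2.59 to 3.49 RPKM in LA 24h libraries, and Sf3b4 is highest in LA 8h libraries; the small 4 h difference of Srsf1 and of Sf3b4 from 0 h changes sign when scaled to reads in listed genes.

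The starts of these genes lay almost all in peaks of both histone marks. Among 44 splicing factors with an annotated start, 41 (93.2%, exact 95% interval 81.3 to 98.6%) had an M1 H3K18la peak within 2 kb, and 44 an M0 H3K18la peak. All 44 also had an H3K18ac peak in both M1 and M0 (lower bound of the exact 95% interval 92.0%, counting error only). Among 7823 tested genes with a start in the table the shares were 77.6% for M1 H3K18la, 93.2% for M0 H3K18la, 93.1% for M1 H3K18ac and 95.0% for M0 H3K18ac. The 3 genes with no M1 H3K18la peak there were Snrpa1, Snrpd2 and Snrpf, whose M0 H3K18la peaks had fold enrichments of 4.43, 4.39 and 5.06, among the lowest of the 44. The authors' fold enrichment had a median of 5.57 over the splicing factors in the M1 H3K18la list, beside 4.79 over tested genes with a peak, and of 9.62 in the M0 H3K18la list, beside 7.01. In the M0 H3K18la list Hnrnpu had 15.75 and Srsf3 14.73, near the top of the range of 4.39 to 15.75 for the splicing factors, and Srsf7 had 8.41. With 1 library per mark and state and lists of 16139 (M1) and 21885 (M0) H3K18la peaks, M1 and M0 were not compared by a test.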

How the data were processed

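RNA was sequenced from stranded mRNA libraries and chromatin after micrococcal nuclease digestion, per the labels' protocols. The authors deposited RPKM for 11184 genes; HISAT2 2.1.0, featureCounts 1.5.0-p1, Bowtie2 2.2.6, SAMtools 0.1.19 and MACS2 2.2.1 are named per the submitters' processing notes, with builds mm10 and GRCm38, and whether counting used strand is not given there. The deposited table also gives the authors' mean log2 CPM and an FDR (adjusted p-value) per gene, which served to recover reads and to count genes that missed 0.05. The ChIP-seq table's deposited counts of reads in the mouse genome give 21.0 M (M1) and 21.8 M (M0) for H3K18la, 32.9 M (M1) and 36.6 M (M0) for H3K18ac. The deposited peak lists, 1 per library, hold a fold enrichment (a ratio) and a −log10 q per peak.

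From these, log2(RPKM + 1) of the 9942 genes that reached 1 RPKM in 4 or more libraries, all 50 splicing factors included, was fitted with limma 3.58.1 (trend) in R 4.3.3, 1 mean per group over all 32 libraries, with Benjamini-Hochberg adjustment over all genes tested in each of 10 contrasts. Whole reads and counted gene lengths were recovered from the RPKM steps, with 99.99% of values within 0.05 of a whole read, and served for depth, for edgeR 4.0.16 and DESeq2 1.42.0 as alternatives, and for scaling to reads in listed genes. The limma fit was tested on simulated data. Genes were named by a rule: a fixed set, up to 4 called members in each direction and contrast, the highest and most variable member of each family, and up to 2 of each list of other splicing genes. Srsf6 and 3 uncalled hnRNP genes at 4 h, and the 3 genes with no M1 H3K18la peak, were named there after their values were seen. Members and lists were chosen with earlier results of these data known. Peaks were joined to RefSeq starts (GRCm38.p6, the coordinates of mm10) by an overlap of at least 1 base within 2 kb, with Python 3.11.15. The inputs were used only as listed depth. Intervals cover counting error only.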

Additional observations from a re-analysis of the deposited data

Results flagged for a closer look

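In 3 of 96 groups of 4 libraries screened, 1 library lay far from the other 3, where chance gives about 1 in 20 groups: Srsf1 at 3.49 RPKM in an LA 24h library, Hnrnpa1 at 31.0 RPKM in an LA 16h library and Sf3b4 at 18.1 RPKM in a 0h library. The lactic acid effect at 24 h minus that at 8 h passed its own test in limma (adjusted p under 0.05) for 26 of the 50 genes, and every one is given here. It was negative for Srsf1 (-1.16), Sf3b3 (-0.92), Hnrnpm (-0.88), Hnrnpu (-0.74), Hnrnpul2 (-0.71), Hnrnpd (-0.69), Hnrnpab (-0.53), Sf3b4 (-0.51), Hnrnph2 (-0.45), Srsf5 (-0.45), Hnrnpa2b1 (-0.44), Sf3b2 (-0.33), Hnrnpul1 (-0.30), Srsf2 (-0.27), Srsf4 (-0.27), Hnrnpr (-0.25) and Hnrnph1 (-0.24) on the log2 scale. It was positive for Snrpd2 (0.80), Sf3b5 (0.71), Snrpc (0.62), Snrpg (0.61), Sf3b6 (0.49), Hnrnpc (0.41), Snrpe (0.39), Hnrnpk (0.37) and Snrpa (0.26). Scaled to reads in listed genes, 5 genes were positive and 30 negative, beside 1669 and 4761 of all 9942 tested genes. Gene length moved with these differences, and its part was not tested.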

How the results depend on the processing

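Of 181 gene and comparison pairs, 3101 of 3173 alternative values kept their direction and side of the threshold, 54 were no longer called, 1 became called and 17 changed sign. Many of these pairs were picked as the largest called differences, and many alternatives leave out 1 library. The share kept is therefore high in part by that choice. Scaling to reads in listed genes changed the most: members higher and lower became 23 and 15 at 4 h, 11 and 28 at 8 h, 4 and 42 at 16 h and 1 and 43 at 24 h against 0 h, 0 and 34 at LA 24h against 24h, and 5 and 30 for the difference of lactic acid effects. Under it the sign changed at 4 h against 0 h for Hnrnpa1 (-0.002), Hnrnpa2b1 (-0.029), Sf3b4 (-0.28), Srsf1 (-0.22), Srsf2 (-0.01) and Clk1 (-0.005), at 8 h for Sf3b4 (-0.23) and Srsf5 (-0.10), at 16 h for Hnrnpll (-0.13), at 24 h for Sf3b1 (-0.30), Srsf7 (-0.33) and Snrnp70 (-0.26), and at LA 24h against 24h for Hnrnpk (-0.012), Hnrnpul1 (-0.001) and Sf3b1 (-0.007). Over all 9942 tested genes that scaling gave 2335 higher and 6337 lower at 4 h and 2200 and 6365 at 8 h. It gave 2085 and 6045 at 16 h, 1686 and 6588 at 24 h, and 1035 and 4616 at LA 24h. For the difference of lactic acid effects it gave 1669 and 4761. With length trends removed, Srsf7 (-0.007) and Snrnp70 (-0.01) changed sign at 24 h. At LA 24h 7 members were then higher, beside 2678 of all 9942 tested genes. At 24 h against 0 h, 7 Snrp genes were then lower, beside 3652 of all 9942 tested genes. Fitting only the groups compared, with fewer libraries in the fit, gave 0 higher and 8 lower at LA 24h. The cause of this and of the other changes was not tested. Leaving out 1 library gave 3 to 7 members higher at LA 24h and 8 to 14 for the difference of effects, the highest of both without 24h replicate 4. With a replicate block, 40 members were higher and 5 lower at 4 h, and no count moved by over 1.5 times. The replicate numbers did not pair the libraries, with correlations of -0.14 to 0.18 at 4 h against 0 h. Such correlations ran from -0.26 to 0.51 at 24 h against 0 h and from -0.64 to 0.13 at LA 24h against 24h. Without 24h replicate 4 and LA 24h replicate 1, a choice made after seeing the data, 40 and 5 members were called at 4 h, 9 and 30 at 24 h, and 6 and 12 at LA 24h. For the fits that leave out libraries or groups or add a replicate block, the shares over all tested genes are not given here. Peaks with a −log10 q of at least 5 lay at 38 starts for M1 H3K18la. Having 1 ChIP-seq library per mark and state allows no test.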
